A study of Homo sapiens with 6 samples.

Results

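Mucins are large glycoproteins that cover epithelia, and 10 of their genes are described here in HT-29 cells treated with a bacterial protein. They are the gel-forming *MUC2*, *MUC5AC* and *MUC5B* and the membrane-bound *MUC1*, *MUC3A*, *MUC4*, *MUC12*, *MUC13*, *MUC17* and *MUC20*, picked by symbol, and all 10 were found among the 63241 genes of the deposited table. HT-29 is an established human colorectal adenocarcinoma line, labelled as wild-type enterocytes from colon. The A904 group received recombinant Amuc_0904, a protein of the gut bacterium *Akkermansia muciniphila*, at 0.5 μM for 72 h. The Control group received buffer. Each group had 3 RNA-seq libraries, the paired reads were 150 bases a mate, and neither the labels nor the study's methods say whether libraries came from separate cultures. The p values then rest on a spread that may be technical. The study used the RNA-seq to look for how Amuc_0904 acts on *KLF4* and *MUC2*. Among goblet cell genes it named *MUC1*, *MUC2*, *MUC5AC* and *MUC12* as upregulated in the treated group. All mucin values here come from these same 6 libraries, so they are not independent evidence.

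Gel-forming mucins are secreted by goblet cells, link end to end through cysteine-rich domains and swell into the mucus layer. *MUC2* builds the mucus of the intestine, *MUC5AC* that of the stomach surface and airway, and *MUC5B* that of the airway glands. Membrane mucins stay anchored in the apical membrane of absorptive and secretory cells, where their sugar-covered outer parts form the glycocalyx and their cytoplasmic tails take part in signalling. In both classes the long middle part is rich in serine and threonine, the residues that carry the O-linked sugars, and in many members it is a tandem repeat.

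The repeats are shown because they typify the family and because short reads from identical copies cannot be placed on one copy. The units below are the most frequent exact copy in the longest transcript of each gene (GENCODE v29, GRCh38), written 5′ to 3′ with the codons for serine and threonine in capitals.
MUC1: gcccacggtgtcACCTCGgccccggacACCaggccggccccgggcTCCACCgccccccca
MUC2: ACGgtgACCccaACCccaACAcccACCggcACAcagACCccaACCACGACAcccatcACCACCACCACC
MUC4: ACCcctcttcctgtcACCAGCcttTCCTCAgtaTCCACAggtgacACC
MUC20: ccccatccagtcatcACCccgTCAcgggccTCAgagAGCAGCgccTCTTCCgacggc
The *MUC1* unit (exon 2, first copy at chr1:155191820-155191879, minus strand) has 60 bases and occurs in 19 exact copies, and 25% of its 20 codons encode serine or threonine. The *MUC2* unit (exon 30, chr11:1095821-1095889, plus strand) has 69 bases and 8 exact copies, and 60.9% of its 23 codons encode these residues, the highest share of the 4. The *MUC4* unit (exon 2, chr3:195788034-195788081, minus strand) has 48 bases and 14 exact copies, with 50% of its 16 codons. The *MUC20* unit (exon 1 of that transcript, chr3:195725150-195725206, plus strand) has 57 bases and 10 exact copies, with 36.8% of its 19 codons. The reading frame came from the annotated coding sequence, except for *MUC2*, where the longest stretch without a stop codon was used.

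In every library the membrane mucins made up nearly all of the mucin transcripts. Values are TPM, transcripts of a gene scaled for length and to a fixed library sum, so levels can be compared between genes. The gel-forming genes summed to 2.09, 2.41 and 2.30 TPM in A904 replicates 1, 2 and 3, against 1.71, 2.33 and 1.92 TPM in Control replicates 1, 2 and 3. The membrane genes summed to 164.6, 126.4 and 130.4 TPM in the A904 libraries, against 146.8, 148.9 and 141.8 TPM in the Control libraries. The gel-forming share of mucin TPM was thus 1.62% ± 0.324 in A904 and 1.34% ± 0.195 in Control (SD, n = 3 each), and the groups overlapped. *MUC13* alone held 58.1% ± 0.721 of mucin TPM in A904 and 57.1% ± 0.69 in Control.

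Both groups had the same order of mean levels, namely *MUC13*, *MUC20*, *MUC3A*, *MUC1*, *MUC12*, *MUC5AC*, *MUC2*, *MUC4*, *MUC17* and *MUC5B*. Over the 6 libraries, neighbours in this order did not overlap, apart from *MUC2* with *MUC4* and *MUC4* with *MUC17*, which did not differ beyond their spread. *MUC13*, at a mean of 83.6 TPM over the 6 libraries, was above 97.5% of the genes in the table. *MUC2*, at 0.572 TPM, was above 75% of them, a group that includes many genes at 0. Labelled an enterocyte line, the cells had 6130 to 6900 TPM of the 5 epithelial line markers summed in A904 and 6170 to 6190 TPM in Control. Among the leukocyte markers, *CD3E* was at 0 throughout and *PTPRC* reached 0.01 TPM in A904 and 0.02 TPM in Control. *ITGAM* was at 0.84 to 1.49 TPM in A904 and at 0.69 to 1.95 TPM in Control. *CD14* was at 1.89 to 2.85 TPM in A904, against 4.65 to 4.76 TPM in Control, without overlap (limma adjusted p = 0.15). Of all tested genes, 7.59% were lower without overlap. *LYZ*, on both the leukocyte and the Paneth cell list, was at 2473.95 to 2698.32 TPM in A904 and at 2573.53 to 2621.41 TPM in Control. Of the other 3 Paneth cell markers, *DEFA5* and *DEFA6* were at 0 throughout, and *PLA2G2A* was at 0.90 to 1.34 TPM in A904 and at 0.44 to 1.13 TPM in Control. As these are bulk libraries, fewer cells of a type and less RNA per cell cannot be told apart.

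**Figure D1:**
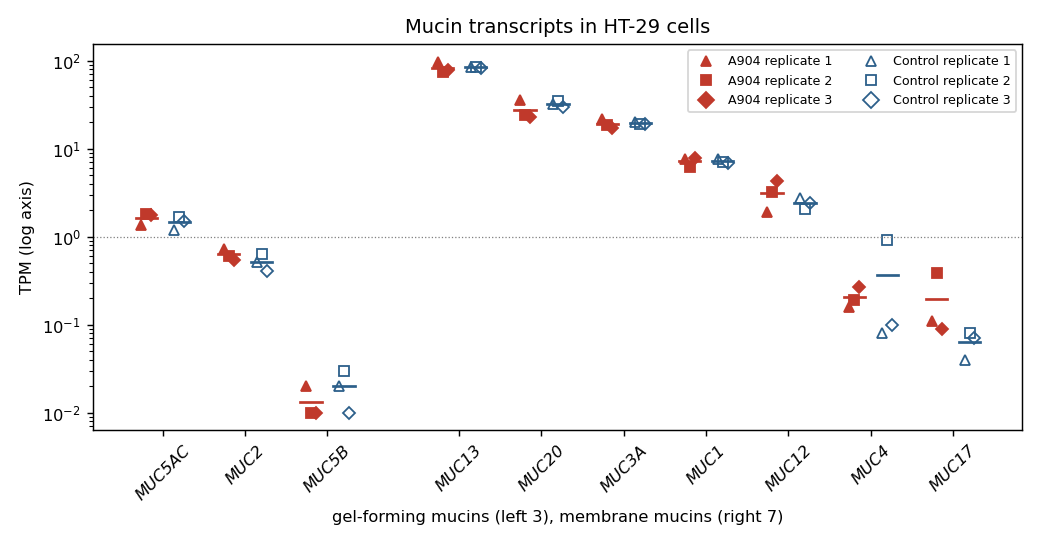
TPM of the 10 mucin genes on a log axis, 1 point per library (filled, A904; open, Control; symbols give the replicate) with a bar at each group mean and a dotted line at 1 TPM. The means of *MUC13* are 82.9 TPM in A904 and 84.3 TPM in Control, while *MUC2*, *MUC4*, *MUC17* and *MUC5B* lie below 1 TPM in every library.

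The A904 libraries were not alike. On the first principal component of the tested genes, which held 35.5% of the variance, A904 replicate 1 lay at -4.79 and A904 replicates 2 and 3 at 20.4 and 22.8, against -13.0 to -12.4 in the Control libraries. Mitochondrially encoded transcripts took 13.0%, 10.6% and 11.1% of TPM in A904 replicates 1, 2 and 3, against 12.8% to 13.5% in Control. Results are therefore given with and without A904 replicate 1. No counts were used here, so the depth of each library and the counting error of each value are unknown.

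No mucin gene passed the test between A904 and Control. The limma test on log2(TPM + 1) covered the 14333 genes that reached 1 TPM in 3 or more libraries, and 6 of the 10 mucins were among them. At an adjusted p under 0.05, 10 genes were higher in A904 (0.0698% of those tested) and 24 were lower (0.167%), and 0 were mucins in either direction. At an unadjusted p under 0.05, 9.95% of tested genes were higher and 5.87% lower, and again 0 of the 6 mucins. Among the tested mucins, 2 had a higher mean log2 value in A904, *MUC5AC* and *MUC12*, and 4 a lower one. Of all genes tested, 7225 had a higher and 7108 a lower mean. For no tested mucin did a group of 3 libraries lie wholly above or below the other, which 13.4% of tested genes did upward and 7.59% downward (21% in all). The median log2 fold change was 0.101 over the 3 gel-forming genes and -0.0225 over the 7 membrane genes (-0.0987 without A904 replicate 1 and 0.0443 without A904 replicate 2), beside 0.00147 over all genes tested.

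*MUC2*, the main gel former of the colon, was at 0.73, 0.61 and 0.54 TPM in A904 replicates 1, 2 and 3, against 0.51, 0.63 and 0.41 TPM in Control replicates 1, 2 and 3. The groups overlapped, since Control replicate 2 lay above A904 replicates 2 and 3. The means were 0.627 ± 0.0961 TPM in A904 and 0.517 ± 0.11 TPM in Control (SD, n = 3 each), and the two-sided exact permutation p was 0.3, where 0.1 is the smallest that 3 libraries against 3 can give. *MUC2* was below the filter on low values, and in a limma fit without the filter its adjusted p was 0.748. *MUC5AC*, the only gel former that passed the filter, was at 1.34, 1.79 and 1.75 TPM in A904 and at 1.18, 1.67 and 1.5 TPM in Control. Its A904 replicates 2 and 3 lay above all Control libraries and its replicate 1 within their range. The log2 fold change was 0.101 (SE 0.144, 95% interval -0.236 to 0.438, limma adjusted p = 0.764), so neither direction was shown. *MUC5B* stayed between 0.01 and 0.02 TPM in A904 and between 0.01 and 0.03 TPM in Control, too low for a comparison.

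*MUC13*, the membrane mucin with the highest level, was at 97.54, 73.74 and 77.54 TPM in A904 replicates 1, 2 and 3, against 84.60, 85.30 and 83.06 TPM in Control replicates 1, 2 and 3. A904 replicate 1 lay above all Control libraries and A904 replicates 2 and 3 below all of them. The means, 82.9 ± 12.8 TPM in A904 and 84.3 ± 1.15 TPM in Control (SD, n = 3 each), therefore differed little and had unlike spreads (log2 fold change -0.034, SE 0.101, 95% interval -0.271 to 0.202, limma adjusted p = 0.897).

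*MUC3A*, a mucin of the enterocyte brush border, had the same arrangement in a narrower range. It was at 21.60, 18.46 and 17.36 TPM in A904 and at 19.82, 19.05 and 19.27 TPM in Control (log2 fold change -0.023, SE 0.0859, limma adjusted p = 0.924). A904 replicate 1 was again the highest library and A904 replicates 2 and 3 the lowest. *MUC1*, whose cytoplasmic tail binds β-catenin, was at 7.67, 6.19 and 7.78 TPM in A904 and at 7.71, 7.13 and 6.94 TPM in Control. Here A904 replicate 2 was the lowest library and the other A904 libraries lay at or near the top of the Control range (log2 fold change -0.013, SE 0.104, 95% interval -0.257 to 0.231, limma adjusted p = 0.963).

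*MUC12*, a neighbour of *MUC3A* on chromosome 7 that also coats the colonic brush border, showed the opposite arrangement. It was at 1.92, 3.21 and 4.28 TPM in A904 replicates 1, 2 and 3, against 2.75, 2.08 and 2.39 TPM in Control replicates 1, 2 and 3. A904 replicate 1 was the lowest library and A904 replicates 2 and 3 the highest. The log2 fold change was 0.24 (SE 0.217, 95% interval -0.266 to 0.752, limma adjusted p = 0.613), the widest interval of the 6 tested mucins. Its antisense gene *MUC12-AS1*, which overlaps it in position, was at 5.59, 6.05 and 6.69 TPM in A904 and at 5.02, 5.23 and 7.53 TPM in Control (limma adjusted p = 0.891). On either strand, 0% of the 150-base windows of the longest *MUC12* transcript occur in another gene. Whether reads were assigned by strand is not given in the sources used here, so reads of the pair from outside that transcript remain uncertain.

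*MUC17*, the third membrane mucin of that cluster and a component of the small intestinal glycocalyx, was at 0.11, 0.39 and 0.09 TPM in A904, against 0.04, 0.08 and 0.07 TPM in Control. It was the only mucin whose groups did not overlap. Of the tested genes, which do not include *MUC17*, 13.4% were higher without overlap. The A904 replicates 1 and 3 of *MUC17* lay close to the highest Control library, and it was below the filter (exact permutation p = 0.1, the smallest possible). Without the filter its limma adjusted p was 0.694. *MUC4*, a binding partner of the receptor ERBB2, was at 0.16, 0.19 and 0.27 TPM in A904, against 0.08, 0.92 and 0.10 TPM in Control (exact permutation p = 1). Its lower mean in A904 rested on Control replicate 2, and without that library the difference of mean log2 values changed sign, to 0.15 in place of -0.13. At these levels neither gene allows a firm comparison.

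**Figure D2:**
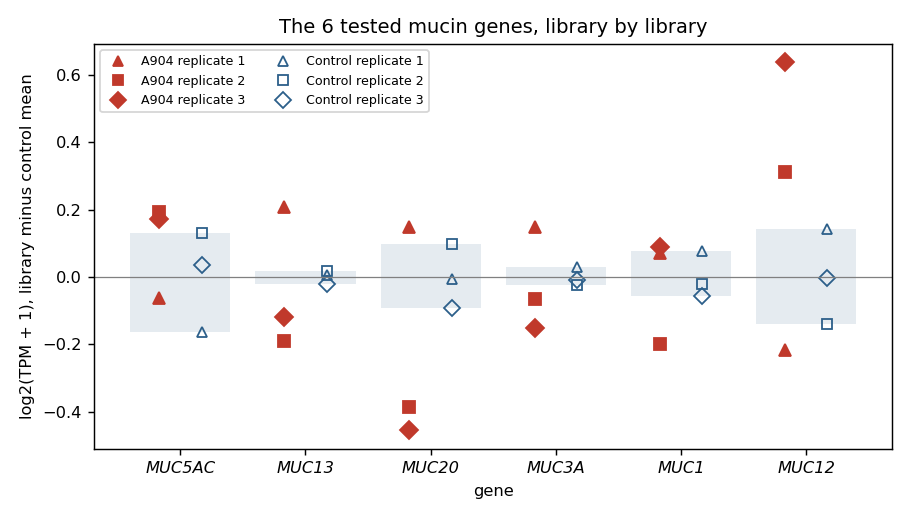
Each library's log2(TPM + 1) minus the Control mean for the 6 tested mucins (filled, A904; open, Control; grey boxes, range of the Control libraries). For *MUC13*, *MUC20* and *MUC3A* A904 replicate 1 lies above the box and replicates 2 and 3 below it, and *MUC12* shows the reverse.

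Thus 3 mucins, *MUC3A*, *MUC13* and *MUC20*, had A904 replicate 1 above and A904 replicates 2 and 3 below the whole Control range, an arrangement shared by 1451 tested genes (10.1%). The reverse, seen for *MUC12* alone among the mucins, was shared by 368 (2.57%). These shares depend on how libraries are scaled. After rescaling TPM by median-of-ratios factors, 729 genes (5.09%) had the first arrangement and 925 (6.45%) the reverse, *MUC3A*, *MUC13* and *MUC12* kept theirs, and *MUC20* had neither. Whether the mitochondrial share or the position of A904 replicate 1 plays a part in these values was not tested.

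When A904 replicate 1 was left out, 2 mucins passed the test as lower in A904, *MUC13* and *MUC20*. This fit called 1339 of 14077 genes higher (9.51%) and 1301 lower (9.24%), so that calls were common among all genes. *MUC13* had a log2 fold change of -0.155 (SE 0.0384, 95% interval -0.248 to -0.062, limma adjusted p = 0.0392). *MUC20* had a log2 fold change of -0.42 (SE 0.068, 95% interval -0.586 to -0.256, limma adjusted p = 0.0106). *MUC12* had the only positive value with an interval above 0, 0.47 (0.115 to 0.832), and missed the threshold at a limma adjusted p of 0.0737. The other values were -0.11 for *MUC3A* (limma adjusted p = 0.231), -0.055 for *MUC1* (limma adjusted p = 0.766) and 0.18 for *MUC5AC* (limma adjusted p = 0.412). Leaving out any other library called no mucin.

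**Figure D3:**
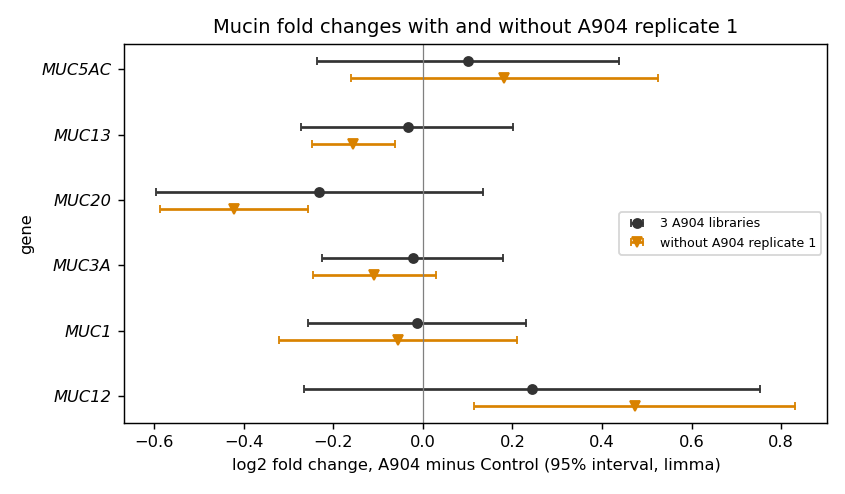
Log2 fold change of A904 over Control with its 95% interval from limma for the 6 tested mucins, with all 3 A904 libraries (circles) and without A904 replicate 1 (triangles). All 6 intervals cross 0 with 3 A904 libraries, and those of *MUC13*, *MUC20* and *MUC12* leave 0 without replicate 1.

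*MUC20* encodes a membrane mucin known to bind the cytoplasmic docking site of the receptor MET and to keep the adaptor GRB2 from it. It was at 35.58, 24.25 and 23.07 TPM in A904 replicates 1, 2 and 3, against 31.84, 34.31 and 29.99 TPM in Control replicates 1, 2 and 3. A904 replicates 2 and 3 were the lowest of the 6 libraries and A904 replicate 1 the highest. With all libraries the means were 27.6 ± 6.91 TPM in A904 and 32.0 ± 2.17 TPM in Control (SD, n = 3 each; log2 fold change -0.23, SE 0.155, 95% interval -0.595 to 0.134, limma adjusted p = 0.5). It was the mucin with the lowest adjusted p of the 6. When limma weighted the libraries by their estimated quality, *MUC20* was called lower (log2 fold change -0.38, adjusted p = 0.035). That weighted fit called 1056 of all 14333 genes lower and 1315 higher, so calls were common in it. In an unweighted fit *MET* itself averaged 53.2 ± 3.25 TPM in A904 and 50.9 ± 2.69 TPM in Control (limma adjusted p = 0.684), a gene named after its values were seen.

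The value of *MUC20* is uncertain because it shares sequence with a near copy and with an overlapping gene. Of the 150-base windows of its longest transcript, 46.9% also occur in another gene. The other genes are the pseudogene *MUC20P1* on the same chromosome (chr3:195614947-195620233) and *MUC20-OT1*, which overlaps *MUC20*. The part of the 46.9% that falls to each was not separated, so the near copy may account for less. *MUC20P1* holds 4 exact copies of the repeat unit printed above. *MUC20P1* was at 16.22, 11.20 and 11.21 TPM in A904 and at 14.59, 15.85 and 14.03 TPM in Control, which is the arrangement of *MUC20* itself. Like *MUC20*, the pseudogene did not keep it after median-of-ratios rescaling. Its TPM divided by that of *MUC20* was 0.456, 0.462 and 0.486 in A904 and 0.458, 0.462 and 0.468 in Control, nearly the same in every library. *MUC20P1* was called lower as well when A904 replicate 1 was left out (log2 fold change -0.37, SE 0.0715, limma adjusted p = 0.0177). *MUC20-OT1* did not show it, at 42.31, 40.79 and 40.01 TPM in A904 and at 40.19, 41.22 and 39.83 TPM in Control (log2 fold change 0.021, limma adjusted p = 0.866). How the study's counting divided reads between these genes was not stated.

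**Figure D4:**
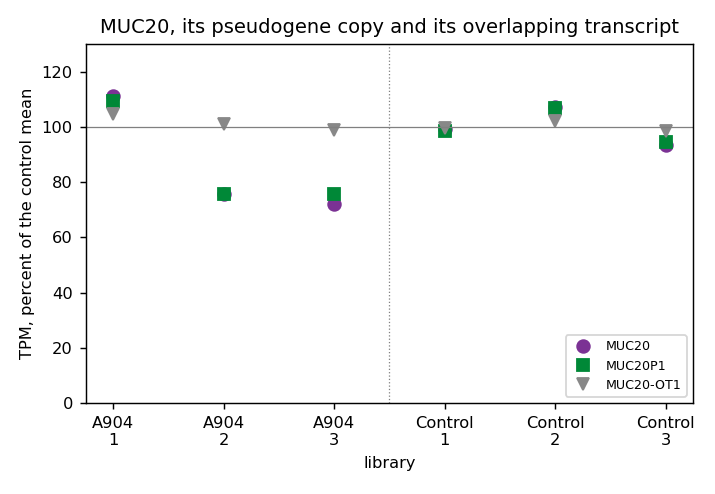
TPM of *MUC20*, *MUC20P1* and *MUC20-OT1* in each library as a percent of the gene's Control mean. *MUC20* and *MUC20P1* lie almost on top of each other in all 6 libraries and are low in A904 replicates 2 and 3, while *MUC20-OT1* lies near the Control mean throughout.

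The other mucins shared far fewer windows with another gene, from 0% for *MUC1*, *MUC2*, *MUC4*, *MUC5AC*, *MUC12* and *MUC13* to 1.33% for *MUC5B*. Within their own transcript, 39.8% of the windows of *MUC12* and 24.3% of those of *MUC1* occur more than once, against 0% for *MUC13*, *MUC3A* and *MUC17*. The genes lie in clusters on GRCh38 by GENCODE v29. *MUC2* (chr11:1074875-1110511), *MUC5AC* (chr11:1157953-1201138) and *MUC5B* (chr11:1223066-1262172) follow each other on the plus strand. *MUC3A* (chr7:100949555-100968346), *MUC12* (chr7:100969623-101018949) and *MUC17* (chr7:101020072-101058745) do so too, and these adjacent genes differed in level, at means over the 6 libraries of 19.3, 2.77 and 0.13 TPM. *MUC20* (chr3:195720882-195741123, plus strand) and *MUC4* (chr3:195746765-195812277, minus strand) also adjoin, at 29.8 and 0.287 TPM. *MUC13* (chr3:124905442-124953819, minus strand) and *MUC1* (chr1:155185824-155192916, minus strand) stand alone.

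The sequences before the start sites are shown for *MUC13*, *MUC3A* and *MUC12*, the mucins without a near copy that had A904 replicate 1 on one side of the Control range and A904 replicates 2 and 3 on the other. They are RefSeq windows on GRCh38.p14, written 5′ to 3′ on the gene's strand and ending at the start site, with matches to the searched motifs in capitals. RefSeq and GENCODE place the *MUC13* start differently, the RefSeq one lying within the GENCODE gene.
MUC13 (chr3:124934752-124935001, minus strand): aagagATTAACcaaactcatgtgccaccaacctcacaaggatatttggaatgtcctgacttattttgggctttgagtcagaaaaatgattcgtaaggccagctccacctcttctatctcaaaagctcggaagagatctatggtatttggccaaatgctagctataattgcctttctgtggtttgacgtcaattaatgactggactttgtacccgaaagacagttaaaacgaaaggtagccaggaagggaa
MUC3A (chr7:100949284-100949533, plus strand): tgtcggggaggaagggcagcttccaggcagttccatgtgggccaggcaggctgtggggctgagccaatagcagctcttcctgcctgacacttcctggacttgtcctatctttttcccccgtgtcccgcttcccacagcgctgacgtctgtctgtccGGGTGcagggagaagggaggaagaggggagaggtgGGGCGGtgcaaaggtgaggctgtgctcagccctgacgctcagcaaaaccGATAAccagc
MUC12 (chr7:100969315-100969564, plus strand): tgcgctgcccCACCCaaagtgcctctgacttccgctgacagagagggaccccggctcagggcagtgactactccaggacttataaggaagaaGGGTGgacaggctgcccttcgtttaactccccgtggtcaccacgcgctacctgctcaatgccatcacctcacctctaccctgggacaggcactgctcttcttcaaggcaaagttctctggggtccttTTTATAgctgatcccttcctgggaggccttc
The motifs were searched on both strands, and no matches in these 3 windows overlap. The *MUC13* window holds 1 match to GTTAAT, part of the site of HNF1 factors, which 6.23% of 35116 promoters hold, and none of the other motifs. The *MUC3A* window holds 1 GATAA (GATA factors, 20.4% of promoters), 1 GGGCGG (the GC box, 42.6%) and 1 CACCC (KLF factors, 54.7%). The *MUC12* window holds 2 CACCC and 1 TATAAA (the TATA box, 10.7%) on the other strand. TTTATT (CDX factors, 16%), CAGCTG (an E-box, 14%) and GGGANTTCC (NF-κB, 1.59%) were in none of the 3. Of the 10 genes 7 had a window, and *MUC2* had 3 CACCC, 1 GATAA and 1 CAGCTG in its own. A match is a description of the letters and not a binding site.

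Genes that work with mucins were described as lists, by counts and medians alone. Over all tested genes, the unadjusted p was under 0.05 for 9.95% upward and 5.87% downward. The groups did not overlap for 13.4% upward and 7.59% downward. Without A904 replicate 1, 9.51% of all genes were called higher and 9.24% lower. Of 16 partners of the mucus gel, 7 were tested, 0 passed at the adjusted p, and the median log2 fold change was 0.248. Before adjustment, p was under 0.05 for 3 genes with a higher mean, *REG4*, *AGR3* and *TFF3*, and for 2 with a lower one, *TGM2* and *SPINK4*. *REG4*, a lectin of secretory epithelial cells, was at 90.91, 141.16 and 140.22 TPM in A904, against 53.51, 53.68 and 55.83 TPM in Control. All A904 libraries lay above all Control libraries, with a log2 fold change of 1.15 (SE 0.161) that just missed the threshold (limma adjusted p = 0.0572). *TGM2*, a transglutaminase that cross-links proteins, averaged 69.9 ± 8.21 TPM in A904 and 98.4 ± 1.72 TPM in Control (log2 fold change -0.49, limma adjusted p = 0.111). Without A904 replicate 1 the calls were *REG4* and *AGR3* higher and *TGM2* and *AGR2* lower. *AGR2*, a disulfide isomerase needed for MUC2 production in mice, was at 565.21, 423.47 and 428.39 TPM in A904 and at 471.45, 460.37 and 449.50 TPM in Control, the arrangement of *MUC13*. Of the goblet cell proteins of the gel, *FCGBP* was between 0.34 and 0.38 TPM in A904 and between 0.45 and 0.58 TPM in Control, while *ZG16* was between 0.35 and 0.56 TPM in A904 and between 0.20 and 0.28 TPM in Control. Both were below the filter and had groups that did not overlap, in opposite directions. Of the other partners below the filter, *RETNLB* and *DMBT1* were also lower without overlap, and none was higher without overlap. *RETNLB* was between 0.11 and 0.13 TPM in A904 and between 0.15 and 0.41 TPM in Control. *DMBT1* reached 0.01 TPM in A904 and was between 0.18 and 0.69 TPM in Control.

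Among 16 regulators of mucin genes, 13 were tested and 0 passed, with a median of -0.0582, and 2 upward (*KLF4*, *SPDEF*) and 1 downward (*ELF3*) had an unadjusted p under 0.05. *KLF4*, a goblet cell factor, was at 9.38, 8.93 and 8.18 TPM in A904, against 7.64, 7.55 and 6.70 TPM in Control (log2 fold change 0.25, SE 0.0885, limma adjusted p = 0.273). Its groups did not overlap, as for 13.4% of tested genes upward. *ELF3*, an epithelial ETS factor, averaged 150 ± 9.72 TPM in A904 and 170 ± 3.72 TPM in Control (log2 fold change -0.18, limma adjusted p = 0.249). Without A904 replicate 1 the list had 1 call upward, *SPDEF*, and 4 downward, *ELF3*, *CREB3L1*, *FOXA1* and *SP1*. Of all genes, that fit called 9.51% higher and 9.24% lower. *SPDEF*, which drives goblet cell maturation in mice, was at 8.92, 12.16 and 12.46 TPM in A904 and at 8.50, 9.33 and 8.13 TPM in Control, so that only A904 replicates 2 and 3 lay above the Control range. The summed TPM of 10 goblet cell markers was 593 to 680 in A904 and 524 to 547 in Control, of which *AGR2* and *REG4* gave 95.3% to 96.5% in every library. Without *REG4* the sum was 451.5 to 589.2 TPM in A904 and 468.5 to 493.6 TPM in Control, and the groups overlapped. The summed TPM of 11 absorptive enterocyte markers was 386 to 415 in A904 and 354 to 368 in Control. These sums did not overlap, but for each single marker the groups did. Of the 11, 6 were tested, all 6 had a higher mean in A904, and 0 passed at the adjusted p. *KRT20*, with the highest mean of the list, was at 127.38 TPM in A904 replicate 1 and at 129.51 TPM in Control replicate 3 (limma adjusted p = 0.337).

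Mucins are folded in the endoplasmic reticulum, packed in granules and released by regulated fusion. Of 19 genes for these steps 18 were tested and 0 passed, 15 had a lower mean in A904 (7108 of all 14333 genes did), and the median was -0.0456. The unadjusted p was under 0.05 for 1 gene upward (*RAB27A*) and 3 downward (among them *XBP1* and *UNC13D*). *XBP1*, the transcription factor of the unfolded protein response, averaged 224 ± 34 TPM in A904 and 276 ± 13.4 TPM in Control (log2 fold change -0.31, limma adjusted p = 0.258). The 3 genes called without A904 replicate 1, all lower, were *XBP1*, *HSPA5* and *MARCKS*. Of all genes, that fit called 9.24% lower.

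The sugars of mucins begin with GalNAc added by GALNT enzymes and are extended by core enzymes. Of 16 genes for these steps 13 were tested and 0 passed, 12 had a lower mean in A904 (7108 of all 14333 genes did), and the median was -0.0608. Only *GALNT4*, 1 gene downward, had an unadjusted p under 0.05. *GALNT4*, one of the GalNAc transferases, averaged 6.15 ± 1.39 TPM in A904 and 8.02 ± 0.353 TPM in Control (log2 fold change -0.35, limma adjusted p = 0.295). *GALNT1*, another, was the exception with a higher mean, at 9.49 ± 0.311 TPM in A904 and 8.48 ± 0.467 TPM in Control (limma adjusted p = 0.392). *GALNT3*, *GALNT4* and *B3GNT3* were called lower when A904 replicate 1 was left out, as were 9.24% of all genes in that fit.

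Proteins that bind or cut membrane mucins formed a list of 15 symbols. Of these, 14 were found as genes, all 14 were tested and 0 passed. The median was -0.0772, and 2 genes, both upward, had an unadjusted p under 0.05. *LGALS3*, the lectin galectin-3 that binds MUC1, averaged 77.8 ± 3.54 TPM in A904 and 70.0 ± 1.73 TPM in Control (log2 fold change 0.15, limma adjusted p = 0.27). *GRB2*, the adaptor named above, averaged 68.2 ± 1.01 TPM in A904 and 63.4 ± 0.688 TPM in Control (log2 fold change 0.11, limma adjusted p = 0.312). Both had groups that did not overlap, as did 13.4% of tested genes upward. Without A904 replicate 1 *LGALS3* was called higher (9.51% of all genes were), and *ERBB2*, *ERBB3*, *ADAM10* and *PDZK1* were called lower (9.24% were).

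Of 18 genes near the mucin loci, 15 were tested and 0 passed, with a median of -0.00958 and 1 gene in each direction at an unadjusted p under 0.05. *THBS3*, a thrombospondin gene near *MUC1*, averaged 4.6 ± 0.878 TPM in A904 and 7.65 ± 0.892 TPM in Control (log2 fold change -0.63, limma adjusted p = 0.194). *TFRC*, the transferrin receptor gene near *MUC20*, averaged 149 ± 4.67 TPM in A904 and 134 ± 2.33 TPM in Control (log2 fold change 0.15, limma adjusted p = 0.245). The groups did not overlap for either gene, as for 13.4% of tested genes upward and 7.59% downward. When A904 replicate 1 was left out the list had 2 calls in each direction, *TFRC* and *AP1S1* upward and *THBS3* and *TRIM56* downward. Of all genes, that fit called 9.51% higher and 9.24% lower. Of 14 further genes named as mucins or relatives of them, 13 were in the table, 6 were at 0 in every library and 3 were tested, with 0 at an unadjusted p under 0.05. *CD164*, a small membrane sialomucin, was at 297.68, 226.03 and 232.08 TPM in A904 and at 289.14, 294.88 and 273.32 TPM in Control (limma adjusted p = 0.414). This was the arrangement of *MUC13* and *MUC20*, which 10.1% of tested genes shared, and *CD164* did not keep it after median-of-ratios rescaling. Without A904 replicate 1 it too was called lower (limma adjusted p = 0.00448), as were 9.24% of all genes in that fit. *MCAM*, once named as a mucin, was at 4.79, 3.96 and 3.61 TPM in A904 and at 6.07, 5.36 and 17.84 TPM in Control, where Control replicate 3 stood apart (limma adjusted p = 0.322).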

How the data were processed

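RNA of 3 A904 and 3 Control libraries of HT-29 cells was sequenced. Per the study's design text the authors trimmed reads with SeqPrep and Sickle, aligned them with HISAT2 and assembled them with StringTie, and the submitters' processing notes add RSEM and edgeR, without versions. The authors deposited TPM per gene. The labels name a mouse genome build (GRCm38.p6), whereas the gene identifiers are human Ensembl ones, so the human build is not given in the sources used here. TPM sum to 1000000 in each library within rounding, 25 lines holding no gene were left out, and depth is unknown.

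The test was limma 3.58.1 (R 4.3.3; trend, robust, two-sided) on log2(TPM + 1) of genes reaching 1 TPM in 3 or more libraries, with Benjamini-Hochberg adjustment over the 14333 genes tested and a threshold of 0.05. Fold changes on this scale understate those of low genes. Members below the filter were compared by exact permutation. The code was tested on simulated data. Members and lists were chosen with earlier results of these data known. Named were all 10 members and, of each list, the 2 genes with the smallest p, except 1 gene that is not reported here. *MET*, *AGR2*, *FCGBP*, *ZG16*, *RETNLB*, *DMBT1*, *SPDEF* and the marker genes were named after their values were seen. So were other genes counted before adjustment or called without A904 replicate 1. Alternatives changed the pseudocount, filter, scaling, library weights, replicate block and libraries used.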

Additional observations from a re-analysis of the deposited data

How the results depend on the processing

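The absence of mucin calls held in 11 of 13 alternatives. The exceptions were library weights, which called 1 mucin lower (*MUC20*), and the fit without A904 replicate 1, which called 2, so the count of mucins called lower ranged from 0 to 2 when libraries were left out. Counts over all genes were unstable. Higher in A904 were 10 genes, against 3 with no filter, 5 with at least 1 TPM in all 6 libraries, 6 with median-of-ratios scaling, 1315 with library weights and 1 to 1339 when 1 library was left out. Lower in A904 were 24 genes, against 15 with no filter, 1056 with library weights and 6 to 1301 when 1 library was left out. The cause was not tested.

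With the replicate number as a block, 5 genes were higher and no mucin was called. Deviations of same-numbered libraries correlated at 0.046, -0.039 and -0.0047 across genes, and those of different-numbered libraries at -0.042 to 0.0538. With 3 libraries in a group, these values cannot show whether the numbers pair the libraries.

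Values near 0 changed sign. *MUC1* was at 0.020 with quantile normalization, 0.080 without A904 replicate 2 and 0.026 without Control replicate 1. With 1 library left out, log2 fold changes ranged from -0.064 to 0.080 for *MUC1*, from -0.108 to 0.041 for *MUC3A* (highest without A904 replicate 3) and from -0.155 to 0.044 for *MUC13* (above 0 without A904 replicate 2, and 0.0085 without A904 replicate 3). With a pseudocount of 0.1 the differences grew for *MUC2* (0.24), *MUC17* (0.73) and *MUC5B* (-0.080), all below the filter. The gel-forming median, which is that of 3 genes, ranged from 0.019 to 0.155 when 1 library was left out. The membrane median ranged from -0.0987 (without A904 replicate 1) to 0.0443 (without A904 replicate 2), and the difference of summed membrane TPM from -17.4 to 1.64 TPM without these libraries, so neither held its sign. Levels under 1 TPM and the unknown depth limit what can be said of *MUC2*, *MUC4*, *MUC17* and *MUC5B*.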
